A study of Mus musculus with 22 samples.

Results

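Spinal cord gene expression of mice given the FKBP51 inhibitor SAFit2 late after joint injury was compared with that of mice given the same inhibitor early. The comparison took the 5 Late SAFit2 and the 5 Early SAFit2 libraries, 10 of the 22 libraries of the series, and the 15860 genes of 17306 that reached a log2 CPM (counts scaled to library size, on a log2 scale) of at least -1 in 5 of these 10 libraries. The other 12 libraries, 6 Late Vehicle and 6 Early Vehicle, were used to set the late-minus-early difference of mice that received no inhibitor beside it.

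All mice were wild-type C57BL6J males aged 12 to 14 weeks at collection, and all received 1 mg of monoiodoacetate (MIA) into one knee joint. MIA blocks glycolysis, kills cartilage cells and leads to lasting joint pain. SAFit2 was given at 100 mg/kg in a vesicular phospholipid gel (VPG) that releases the drug over about a week, and Vehicle mice received the gel alone. Early mice had gel on days -3 and 4 from MIA and late mice on days 20 and 27. Tissue of the lumbar cord (L4-L6) was taken from all on day 30. The study describes the sequenced tissue as the dorsal horn quadrant on the injured side. In the labels of the early mice the gel days stand as 3 and 4. The inhibitor is written SAFit1 in the titles of all 5 Early SAFit2 samples and SAFit2 in their treatment label. The last gel was thus given 26 days before collection in early mice and 3 days before it in late mice, so that only the late mice were within the release period. The labels also give Early and Late as separate batches, and timing and batch cannot be told apart.

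FKBP51, the product of *Fkbp5*, is a co-chaperone of Hsp90 that lowers the affinity of the glucocorticoid receptor for its hormone, and *Fkbp5* is itself induced by glucocorticoids. In the dorsal horn of the spinal cord, where pain signals from the joint arrive, the protein has been linked to the upkeep of long-lasting pain. Lumbar cord holds neurons, astrocytes, microglia, myelinating oligodendrocytes and the ciliated ependymal cells of the central canal. In such bulk tissue, fewer cells of a type and less RNA per cell cannot be told apart.

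Of the 15860 genes tested, 3415 (21.5%) differed between Late SAFit2 and Early SAFit2 at a Benjamini-Hochberg adjusted p under 0.05 in limma and a fold change of at least 1.2. Of these, 1562 genes (9.85% of those tested) were higher and 1853 (11.7%) were lower in Late SAFit2. The median called difference was 1.56-fold. Large differences were mostly reductions: 638 called genes were at least 2-fold lower and 77 at least 2-fold higher, and 134 were at least 4-fold lower against 6 at least 4-fold higher. The 5 late and 5 early libraries did not overlap for 2380 genes (15% of those tested), of which 2095 were called. The call held without each of the 10 SAFit2 libraries in turn for 1718 genes, 764 higher and 954 lower. The total was 2168 (942 higher, 1226 lower) without Early SAFit2 replicate 3, and 1218 genes were called lower without Early SAFit2 replicate 2. It was 2951 (1350 higher, 1601 lower) without Late SAFit2 replicate 5 and Early SAFit2 replicate 1, which had the largest shares of *Bc1* reads in their groups.

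The libraries of both groups also differed as wholes. Depth, as reads assigned to genes, was 14763955 to 18312102 per library in Early SAFit2 and 11352989 to 20242724 in Late SAFit2. Mitochondrially encoded genes took 6.35% to 10.2% of the reads in Early SAFit2 and 11.1% to 12.5% in Late SAFit2. *Bc1*, a short neuronal RNA made by RNA polymerase III, took 0.623% to 3.76% and 3.31% to 16.5%, respectively. The slope of a library on transcript GC content (log2 CPM per 10 percentage points, relative to the mean of all libraries) was -0.16 to 0.25 in Early SAFit2 and -0.48 to -0.07 in Late SAFit2. Among 8 such library measures, 7 differed between the groups (two-sided exact permutation tests over all splits, adjusted p of 0.0212 to 0.0363), the exception being depth (adjusted p = 0.548). In Vehicle mice all 8 measures overlapped between early and late libraries, with 5.80% to 15.6% and 6.03% to 11.9% of reads on mitochondrial genes, respectively. The part of these library differences in the gene differences below was not tested.

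**Figure D1:**
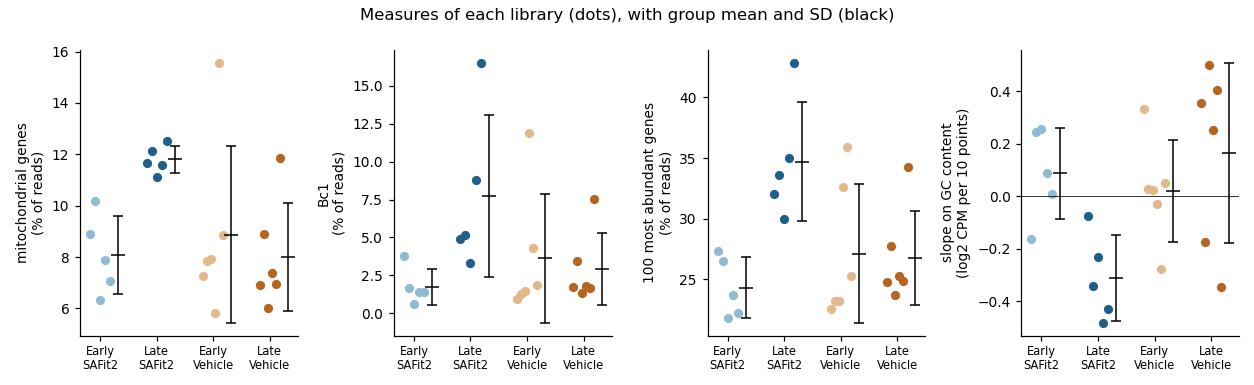
Measures of each library by group: percent of reads on mitochondrially encoded genes, on Bc1 and on the 100 most abundant genes, and the slope of log2 CPM on transcript GC content per 10 percentage points. Dots are libraries and black marks group mean and SD; the 5 Late SAFit2 libraries lie between 11.1% and 12.5% mitochondrial reads, all above the Early SAFit2 libraries.

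The strongest reductions were of long noncoding RNAs that are known to stay in the nucleus. *Firre* (chrX:50555744-50635321), a noncoding RNA that takes part in the arrangement of chromatin, had log2 CPM of 5.16, 5.89, 4.46, 5.37 and 5.42 in Early SAFit2 replicates 1 to 5. In Late SAFit2 replicates 1 to 5 its values were 0.35, 1.39, 0.92, 0.86 and 0.30, so that every late library lay far below every early one. The difference was -4.49 ± 0.26 on the log2 scale (SE, limma, adjusted p = 1.64e-11), or 22.5-fold lower. *Miat* (chr5:112213228-112229395), a nuclear RNA abundant in neurons, had 5.97, 6.65, 5.48, 6.50 and 6.53 in the early and 2.95, 3.02, 2.33, 2.36 and 2.40 in the late libraries, a 12.2-fold reduction (adjusted p = 7.71e-10). These 2 genes had the lowest p of the whole comparison.

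A further 4 noncoding RNAs stood among the 10 reduced genes of lowest p whose groups did not overlap. *Neat1* (chr19:5824708-5845478), the scaffold of nuclear paraspeckles, ranged from 6.93 to 8.20 log2 CPM in Early SAFit2 and from 3.43 to 4.70 in Late SAFit2. *Meg3* (chr12:109541001-109571726), the maternally expressed RNA of the imprinted Dlk1-Dio3 locus, ranged from 8.46 to 10.39 and from 6.32 to 7.02. *Snhg11*, which hosts a small nucleolar RNA, was 13.5-fold lower, and *Mir124a-1hg*, the host transcript of the neuronal microRNA miR-124, was 18.6-fold lower. The mature microRNA was not measured here. The protein-coding genes of this set were *Trank1* at 6.11-fold lower, *Leng8* at 7.73-fold lower, the adaptor gene *Lime1* at 10.2-fold lower and the RNA helicase gene *Ddx17*, which was the least reduced at 2.01-fold. By size alone *Erdr1* joined them among the 5 largest reductions at 10.9-fold, with values of 2.23 to 4.64 in early and -2.42 to 1.41 in late libraries. *Erdr1* lies in the region shared by the X and Y chromosomes, and its reads may be split between copies.

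These reductions were present at much the same size in mice that had received no inhibitor. All 10 genes were also called lower in Late Vehicle against Early Vehicle, with *Firre* at -3.91 ± 0.24, *Miat* at -3.37 ± 0.23, *Neat1* at -3.45 ± 0.24 and *Meg3* at -3.51 ± 0.27 (log2 difference, SE). For *Firre* the SAFit2 difference minus the Vehicle difference was -0.58 (SE 0.35, limma, adjusted p = 0.285), and for the other 9 genes the nominal p of this contrast in limma was between 0.164 and 0.764. Of the 134 genes at least 4-fold lower with SAFit2, 88 were called lower with Vehicle too.

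**Figure D2:**
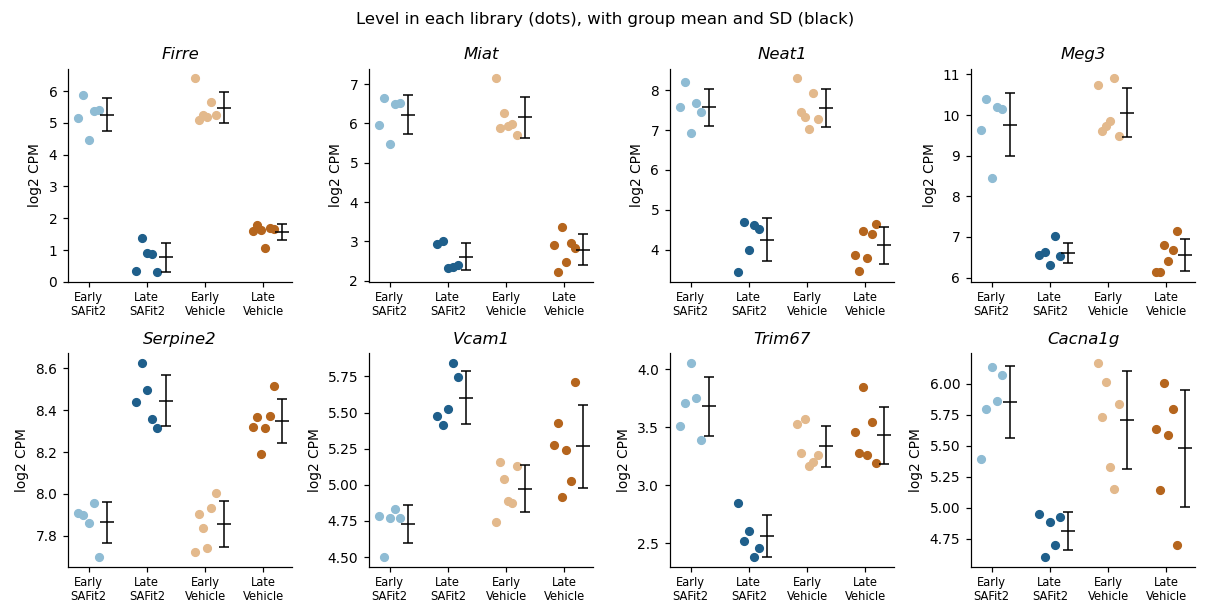
Log2 CPM of 8 genes in each of the 22 libraries (dots), with group mean and SD in black. Firre, Miat, Neat1 and Meg3 were low in both late groups and Serpine2 was high in both. Trim67 was between 2.38 and 2.85 in Late SAFit2, below every library of the other groups, whereas for Cacna1g the Late SAFit2 libraries (4.60 to 4.95) overlapped with Late Vehicle (4.70 to 6.01).

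Noncoding RNAs as a class followed this direction only in part. Of 585 tested genes that GENCODE M21 lists as long noncoding, 74 were called lower (12.6%, against 11.7% of all genes). Of the 585, 14 were called higher (2.39%, against 9.85%), and the median was -0.31 against -0.06 over all genes. Of the 124 among them that carry a given name, 25 were called lower (20.2%) and 7 higher (5.65%), with a median of -0.26. With Vehicle, 21 of these 124 were called lower and 1 higher, with a median of -0.36. Over all 15860 genes, 943 were called lower and 561 higher with Vehicle. The SAFit2 median turned to 0.07 under quantile normalization, where 18 were still called lower.

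The increases were smaller and more even. *Serpine2* (chr1:79794197-79861180), which encodes the glia-derived protease inhibitor nexin-1, had log2 CPM of 7.91, 7.90, 7.86, 7.96 and 7.70 in Early SAFit2 and of 8.44, 8.62, 8.49, 8.36 and 8.31 in Late SAFit2. The increase was 0.58 ± 0.09 on the log2 scale (SE, limma, adjusted p = 0.000123), with no overlap between groups. *Cyp2j9* (chr4:96568429-96591578), a cytochrome P450 that oxidises fatty acids, gave the lowest p of the increased genes, with values of 5.42 to 5.72 in early and 6.24 to 6.48 in late libraries (1.77-fold, adjusted p = 0.000104). *Vcam1* (chr3:116109949-116129688), an adhesion molecule of vessels and glia, had 4.78, 4.50, 4.77, 4.83 and 4.77 in early and 5.48, 5.42, 5.53, 5.84 and 5.75 in late libraries. Its difference was 1.83-fold (adjusted p = 0.000129).

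Also in this set were *Ttyh1* of the tweety family of membrane proteins, *Pla2g7*, which degrades platelet-activating factor, the riboflavin kinase gene *Rfk*, the lysosomal protease gene *Ctss*, *Lrp4* of the LDL receptor family and the translation initiation factor subunit gene *Eif3h*. Their increases lay between 1.46-fold for *Eif3h* and 1.84-fold for *Pla2g7*. All 10 kept their call under every scaling and without every single library. Of the 10, 6 genes, namely *Serpine2*, *Ttyh1*, *Pla2g7*, *Rfk*, *Lrp4* and *Eif3h*, were also called higher in Late against Early Vehicle, with *Serpine2* at 0.49 ± 0.08. For *Cyp2j9*, *Vcam1* and *Ctss* the Vehicle differences were 0.32, 0.29 and 0.32 and did not pass the test, and the nominal p of the difference between the 2 contrasts was 0.00593, 0.00385 and 0.017.

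The largest increases among abundant genes (mean log2 CPM of at least 1) were of another kind. *Lrrc17* rose 5.89-fold, *Bc1* 5.42-fold, *mt-Nd3* 4.59-fold, *Akap5*, which encodes a postsynaptic anchoring protein, 3.88-fold and *mt-Atp8* 3.78-fold. *Bc1* had log2 CPM of 15.16, 13.94, 12.44, 13.64 and 13.60 in Early SAFit2 and of 15.74, 15.83, 15.09, 16.61 and 17.70 in Late SAFit2, so that Early SAFit2 replicate 1 lay above Late SAFit2 replicate 3. All 5 genes were highest in Late SAFit2 replicate 5, lowest among late libraries in Late SAFit2 replicate 3 and lowest of all in Early SAFit2 replicate 3. With Vehicle their differences were between -0.19 and 0.61 and did not pass the test.

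**Figure D3:**
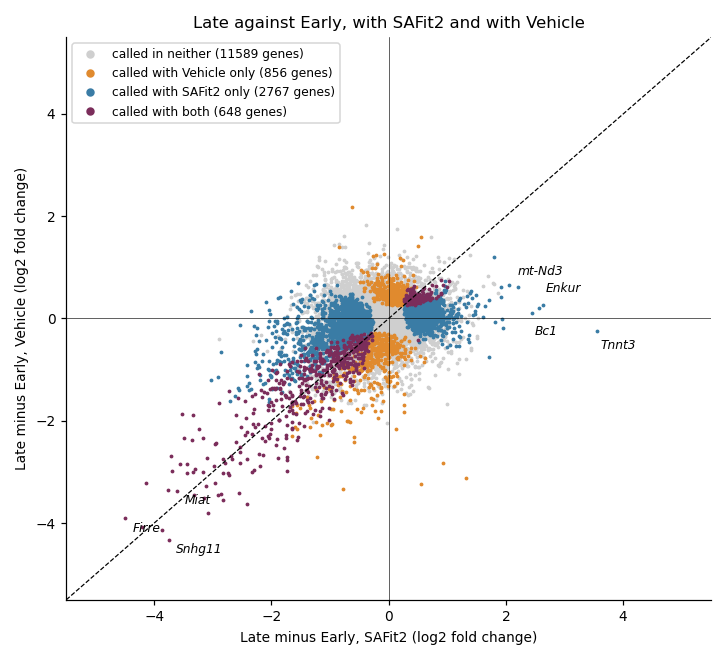
Late minus Early log2 fold change of each of 15860 genes with SAFit2 (horizontal) and with Vehicle (vertical), coloured by where the gene was called; the dashed line marks equality. Of the 648 genes called in both, 496 lie in the lower left and 151 in the upper right, and the 2767 genes called with SAFit2 only spread along the horizontal axis.

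Across genes the SAFit2 and Vehicle differences, which share no library, had a Pearson r of 0.41 and a Spearman rho of 0.20 over 15860 genes, which are not independent of each other. With Vehicle, 1504 genes (9.48%) were called, 561 higher and 943 lower, and the total was 903 without Late Vehicle replicate 1 and 2455 without Late Vehicle replicate 6. The 648 genes called in both comparisons made up 19.0% of the SAFit2 calls and 43.1% of the Vehicle calls. Of them, 496 were lower in both, 151 higher in both and 1 had opposite signs. Of the 638 genes at least 2-fold lower with SAFit2, 270 were called lower with Vehicle, and of the 77 at least 2-fold higher, 1 was called higher with Vehicle.

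Whether a gene's late-minus-early difference itself depended on the inhibitor was tested by the contrast of the 2 differences. No gene (0% of 15860) passed an adjusted p of 0.05 in limma, with a lowest adjusted p of 0.116, although 4103 genes (25.9%) had a nominal p under 0.05. With limma voom on the recovered reads, 0 genes passed as well. The count depended on 1 library: without Late Vehicle replicate 6, which carried 11.9% mitochondrial reads and a GC slope of -0.34, 2613 genes passed. It was 5299 when libraries were weighted by quality, and 2 with a variance that did not follow expression. With a correction for transcript GC content and length, 0 genes passed in limma, with a lowest adjusted p of 0.309. Of the 15394 genes in that fit, 1989 had a nominal p under 0.05. Without that correction, 2767 genes were called with SAFit2 and not with Vehicle, and 1610 of these had a nominal p under 0.05 for the difference.

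The genes of lowest nominal p in that contrast were picked for unlike SAFit2 and Vehicle differences, so that this unlikeness is no separate result. None of them passed the adjusted p of 0.05. *Trim67*, a ubiquitin ligase gene of the nervous system, had log2 CPM of 3.51, 3.71, 4.05, 3.75 and 3.39 in Early SAFit2 and of 2.85, 2.52, 2.61, 2.38 and 2.46 in Late SAFit2. The 6 Early Vehicle libraries lay between 3.16 and 3.57 and the 6 Late Vehicle libraries between 3.19 and 3.84, so that only Late SAFit2 stood apart from the other groups. Its SAFit2 difference was -1.12 (adjusted p = 6.95e-05), its Vehicle difference 0.10, and the difference of these -1.22 (limma, adjusted p = 0.116). *Gli2*, a transcription factor of the Hedgehog pathway, was 0.69 to 1.28 in Late SAFit2 against 1.74 to 2.10 in Early SAFit2, with 2.12 to 2.69 in Late Vehicle, and was not called with SAFit2 after GC correction (-0.35).

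*Rundc1*, *Gorasp1*, which encodes a Golgi stacking protein, and the kinase gene *Plk3* followed the same pattern, with SAFit2 differences of -0.78, -0.74 and -1.21 and Vehicle differences of 0.34, 0.22 and 0.20. In the other direction *Gabpa*, an ETS transcription factor gene, was 0.50 higher with SAFit2 and -0.41 with Vehicle, where the SAFit2 value was 0.37 and not called with library sizes that leave out *Bc1* and mitochondrial genes. *Zfp808* and *Zfp991*, genes of KRAB-type zinc finger clusters, were 1.38 and 0.90 higher with SAFit2, against -0.33 and -0.23. *Lims1*, an adaptor of integrin adhesions, was 0.48 higher against -0.28 (0.35 and not called with those library sizes), and *Tab2*, an adaptor of TAK1 signalling, was not called with SAFit2 (0.15) but was called lower with Vehicle (-0.50).

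The genes called lower and higher with SAFit2 differed in base composition. The median GC content of the longest transcript was 54.8% for genes called lower, 44.5% for genes called higher and 49.7% for all 15394 genes with a value. Over 10 equal bins of genes by GC content, the median SAFit2 difference fell at every step from 0.29 in the lowest bin (363 genes called higher, 38 lower) to -0.51 in the highest (7 higher, 425 lower). With Vehicle the medians ran the other way, from -0.15 to 0.18. Across these genes, GC content and the SAFit2 difference had a Pearson r of -0.43 and a Spearman rho of -0.50, and GC content and the Vehicle difference 0.21 and 0.28.

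When the smooth trend of each library on GC content and length was removed, 3325 genes were called, of which 2049 were among the 3329 called before, with the same sign. The split between directions then turned from 1562 higher and 1853 lower to 2385 higher and 940 lower. It was 2442 and 1331 with libraries centred on their medians and 791 and 3030 with library sizes that leave out *Bc1* and mitochondrial genes. These settings moved the median over all genes from -0.06 to 0.09, 0.05 and -0.18, so the number of genes on each side depends on the scaling.

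**Figure D4:**
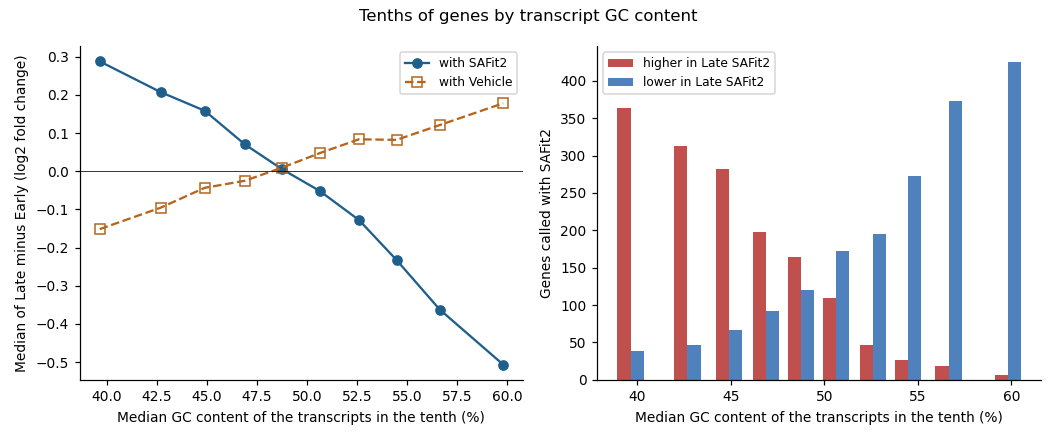
Left: median Late minus Early log2 fold change in 10 bins of genes by transcript GC content (horizontal, median GC percent of the bin) with SAFit2 and with Vehicle. Right: number of genes called with SAFit2 in each bin; genes called higher lie mostly in the GC-poor bins and genes called lower in the GC-rich bins, and the Vehicle medians slope the opposite way.

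Ribosomal protein genes were the group with the most members called in one direction. Ribosomal proteins build the 2 subunits of the cytosolic ribosome, and their messages are known to share a pyrimidine tract at the very start (the TOP element) through which translation is controlled. Of 77 tested, 50 (64.9%, against 9.85% of all genes) rose in Late SAFit2 and none fell, with a median of 0.53. Under the other scalings the median was between 0.35 and 0.64, and 32 were called under quantile normalization. With Vehicle the median was 0.21 and 5 were called higher, against 561 of all 15860 genes. That count of 5 was 0 to 2 without Early Vehicle replicate 1, 2 or 3 or Late Vehicle replicate 1, 3, 4 or 5. It was 9 without Early Vehicle replicate 5 or Late Vehicle replicate 2, and 13 without Late Vehicle replicate 6. *Rps27* had log2 CPM of 7.02, 7.24, 6.56, 7.03 and 6.91 in Early SAFit2 and of 8.02, 7.96, 7.66, 8.03 and 8.39 in Late SAFit2 (2.08-fold, adjusted p = 0.00159), against 6.68 to 8.09 in Early Vehicle and 6.93 to 8.12 in Late Vehicle. *Rpl9* rose 1.73-fold, *Rps7* 1.66-fold and *Rps27a* 1.86-fold, each with no overlap between groups. Many ribosomal protein genes have near-identical pseudogenes, among which reads may be split.

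The start regions of the 4 called members of lowest p that hold the tract are shown because these genes moved together. Each line runs from 10 bases before to 20 after the RefSeq start (GRCm38.p6), with capitals marking a C followed by at least 6 bases that are each C or T.
Rps27: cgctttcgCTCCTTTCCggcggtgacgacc
Rps6: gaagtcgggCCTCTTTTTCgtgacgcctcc
Rpl38: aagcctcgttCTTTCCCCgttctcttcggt
Rpl31: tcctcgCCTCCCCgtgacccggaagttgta
They lie at chr3:90213629-90213658, chr4:86857348-86857377, chr11:114668570-114668599 and chr1:39367841-39367870, the first pair on the minus and the second on the plus strand. Such a run, searched on the sense strand from 10 bases before to 15 after the start, was found in 27 of the 57 ribosomal protein genes with a promoter entry and in 14.6% of the 11920 tested genes with one. It was present in 17 of the 36 called members with an entry, so the share among called members (47.2%) was close to that of all members (47.4%). The run was also found in 181 of the 1143 genes called higher and in 215 of the 1435 called lower that had an entry.

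Mitochondrial energy genes were mostly higher as well. Of the 13 protein genes encoded by the mitochondrial genome, 7 (53.8%, against 9.85% of all genes) rose and none fell, with a median of 0.77, and 11 did not overlap between groups, against 15% of all genes. *mt-Nd3*, a complex I subunit, had log2 CPM of 9.98, 9.63, 8.91, 9.33 and 9.28 in early and of 11.27, 11.65, 10.99, 11.82 and 12.39 in late libraries, while *mt-Co3* of complex IV rose 2.52-fold (0.08 on the log2 scale and not called under quantile normalization). With Vehicle the median was -0.19, and all 13 genes had a nominal p under 0.05 for the difference between the contrasts. The count of increases was 5 to 12 leaving out 1 library. It was 12 without Early Vehicle replicate 5 and 11 without Late Vehicle replicate 6, the Vehicle libraries richest in mitochondrial reads in their groups. With libraries centred on their medians it was 12. Under quantile normalization 2 were called higher and 1 lower, with a median of 0.08.

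Of the 37 nuclear genes for complex I, 10 (27.0%, against 9.85% of all genes) rose and 1 (2.70%, against 11.7%) fell. Of the 36 for complexes II to V, 13 (36.1%) rose and none fell. The medians were 0.30 and 0.27 and stayed above 0 under the other scalings. *Ndufv2* of complex I rose by 0.74 and *Uqcrc2* of complex III by 0.53 on the log2 scale. These counts depended on single libraries. For complex I it was 17 without Early SAFit2 replicate 1, 2 without replicate 3, 5 without replicate 4 and 3 without replicate 5 of that group, 5 without Late SAFit2 replicate 1 or 2 and 4 without replicate 5, and for complexes II to V it was 4, 7, 7 and 6 without Early SAFit2 replicates 3, 4 and 5 and Late SAFit2 replicate 5. With Vehicle the medians were 0.23 and 0.22. Among 30 genes of glycolysis and the TCA cycle, 4 (13.3%, against 9.85% of all genes) were called higher with SAFit2. With Vehicle 19 were called higher (median 0.36), against 561 of all 15860 genes. The SAFit2 median of 0.12 turned negative under quantile normalization and without *Bc1* and mitochondrial genes. The Vehicle count was 11 without Early Vehicle replicate 5, 9 without Late Vehicle replicate 1 and 12 without Late Vehicle replicate 3 or 4. The SAFit2 count was 7 without Early SAFit2 replicate 1, 2 without Early SAFit2 replicate 5 or Late SAFit2 replicate 1, and 14 after GC correction.

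Of 31 proteasome subunit genes, 14 (45.2%, against 9.85% of all genes) were called higher and none lower with SAFit2 (8 higher without Early SAFit2 replicate 3). The median was 0.22 with SAFit2 and 0.17 with Vehicle. With Vehicle 6 were called higher (against 561 of all 15860 genes) and none lower, or 1 to 7 higher leaving out 1 library. *Psmb1*, a subunit of the catalytic core, rose by 0.55 and *Psmd12*, of the regulatory cap, by 0.61 on the log2 scale.

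Among genes of cholesterol synthesis, 16 of 22 differences with SAFit2 were above 0. This pathway supplies the sterol of myelin and of astrocyte membranes, and its genes are switched on together by the factor SREBP2, which acts with the CCAAT-binding factor NF-Y. Of 22 tested, 11 (50%, against 9.85% of all genes) rose and none fell, with a median of 0.29. Leaving out any 1 library of both SAFit2 groups gave 9 to 11, while quantile normalization gave 5. *Cyp51*, the lanosterol demethylase, had log2 CPM of 7.52, 7.21, 7.21, 7.20 and 7.24 in Early SAFit2 and of 7.77, 7.81, 7.88, 7.91 and 8.02 in Late SAFit2 (1.52-fold, adjusted p = 0.0003). *Nsdhl*, a sterol dehydrogenase, rose 1.55-fold and *Hmgcs1*, the HMG-CoA synthase of the pathway's first steps, 1.43-fold, from 8.77 to 8.99 in early to 9.03 to 9.71 in late libraries. *Fdft1*, squalene synthase, rose by 0.39 with SAFit2 and 0.44 with Vehicle, and neither *Hmgcs1* nor *Fdft1* was called with SAFit2 under quantile normalization (0.29 and 0.23). With Vehicle the median of the list was 0.32. There 6 were called higher (against 561 of all 15860 genes), or 11 without Late Vehicle replicate 6.

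The promoters of the 3 called members of lowest p that have an entry are shown for the motif they share. Each line holds the 250 bases before the RefSeq start on the gene's strand, with CCAAT or its reverse complement in capitals.
Cyp51: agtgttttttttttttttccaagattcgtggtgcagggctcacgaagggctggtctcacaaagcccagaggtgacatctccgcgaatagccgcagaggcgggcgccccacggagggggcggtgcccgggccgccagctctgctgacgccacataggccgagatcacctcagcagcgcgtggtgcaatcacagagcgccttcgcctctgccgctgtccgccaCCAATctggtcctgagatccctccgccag
Nsdhl: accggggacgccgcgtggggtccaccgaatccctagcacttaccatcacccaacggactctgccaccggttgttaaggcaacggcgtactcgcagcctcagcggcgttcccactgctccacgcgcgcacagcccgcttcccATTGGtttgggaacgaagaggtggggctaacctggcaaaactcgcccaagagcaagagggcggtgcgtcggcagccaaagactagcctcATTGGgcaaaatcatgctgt
Hmgcs1: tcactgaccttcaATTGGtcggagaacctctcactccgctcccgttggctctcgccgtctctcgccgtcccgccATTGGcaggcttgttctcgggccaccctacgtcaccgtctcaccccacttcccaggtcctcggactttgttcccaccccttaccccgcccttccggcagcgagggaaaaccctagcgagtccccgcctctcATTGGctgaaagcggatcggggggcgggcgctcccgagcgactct
They lie at chr5:4104698-4104947 on the minus strand and chrX:72918271-72918520 and chr13:119690101-119690350 on the plus strand of GRCm38.p6. CCAAT was found on either strand in this window in 16 of 16 genes of the list with a promoter entry, called or not, and in 40.3% of the 11920 tested genes with one. The sterol response element searched as TCACNCCAC was found in *Hmgcs1* alone of the 16, against 1.22% of all genes. Among all genes called higher, 41.2% held CCAAT, and among those called lower 39.0%.

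**Figure D5:**
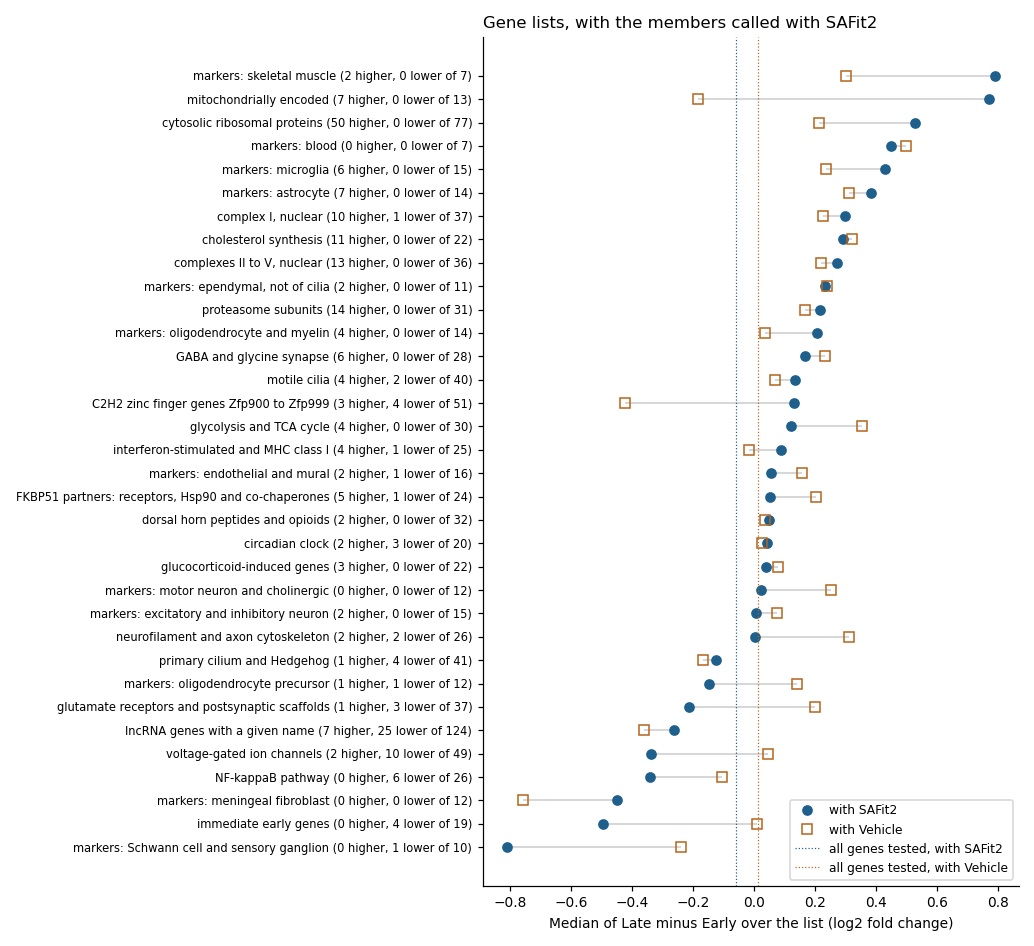
Median Late minus Early log2 fold change of each gene list with SAFit2 (filled circles) and with Vehicle (open squares), with the number of members called higher and lower with SAFit2 in parentheses. Dotted lines mark the medians over all 15860 genes (-0.06 with SAFit2, 0.01 with Vehicle). With SAFit2, skeletal muscle markers (0.79, 7 of 16 tested), mitochondrially encoded genes (0.77) and ribosomal protein genes (0.53) lie farthest to the right. Schwann cell and sensory ganglion markers (-0.81) lie farthest to the left, followed by immediate early genes (-0.49) and meningeal fibroblast markers (-0.45). Ion channels (-0.34) also lie to the left.

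Marker genes of astrocytes, microglia and myelinating oligodendrocytes were among those that rose. Of 14 astrocyte markers, 7 (50%, against 9.85% of all genes) rose and none fell with SAFit2 (median 0.38). With Vehicle 5 rose (median 0.31), against 561 of all 15860 genes, or 3 without Early Vehicle replicate 5. The SAFit2 count was 4 under quantile normalization and 11 after GC correction. The summed CPM of the list was 8029 to 9723 in Early SAFit2 and 11285 to 13208 in Late SAFit2, against 8538 to 11229 and 11336 to 11935 with Vehicle. *Aqp4*, the water channel of astrocyte endfeet, ranged from 8.72 to 9.20 log2 CPM in early and from 9.58 to 10.15 in late libraries (1.81-fold, adjusted p = 0.00148). The gap junction gene *Gja1* rose by 0.71 and the glutamate transporter gene *Slc1a2* by 0.64 on the log2 scale with SAFit2, and by 0.47 and 0.46 with Vehicle. Under quantile normalization *Slc1a2* was not called with SAFit2 (0.30).

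Of 15 microglial markers, 6 (40%, against 9.85% of all genes) were called higher and none lower (median 0.43). Their summed CPM was 413 to 446 in Early SAFit2 and 521 to 640 in Late SAFit2. *P2ry12*, the purinergic receptor of surveying microglia, had log2 CPM of 4.58, 4.44, 4.61, 4.36 and 4.49 in early and of 4.76, 5.41, 5.12, 5.78 and 5.66 in late libraries (1.80-fold, adjusted p = 0.00583). *Cx3cr1*, the fractalkine receptor, rose by 0.50. With Vehicle the median was 0.24 and the summed CPM was 438 to 524 early and 553 to 595 late, so that early and late did not overlap there either. Of 14 oligodendrocyte and myelin markers, 4 (28.6%, against 9.85% of all genes) rose with SAFit2. These were *Ermn*, *Cldn11*, *Mog* and *Ugt8a*, by 0.55 to 0.79, while the list median of 0.21 turned to -0.02 under quantile normalization. Oligodendrocyte precursor markers did not share this direction. Of 12, 1 rose (8.33%, against 9.85% of all genes) and 1 fell (8.33%, against 11.7%). Their median was -0.15, which turned to 0.37 after GC correction.

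The label of spinal cord was borne out by neuronal and glial markers in every library. Of 15 excitatory and inhibitory neuron markers, 2 (13.3%, against 9.85% of all genes) were called higher and none lower. Their summed CPM was 5693 to 6807 in Early SAFit2 and 6543 to 6878 in Late SAFit2. *Slc17a6*, the vesicular glutamate transporter of dorsal horn excitatory neurons, rose by 0.51, and was not called under quantile normalization (0.33). Summed CPM of 12 motor neuron markers was 136 to 593 and 155 to 667.

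Peripheral tissue varied between libraries within groups. Summed CPM of 10 Schwann cell and sensory ganglion markers ranged from 1548 to 3854 in Early SAFit2 and from 187 to 4060 in Late SAFit2. Their median late-minus-early difference was -0.81 with SAFit2 (-0.99 to -0.34 leaving out 1 library), with 1 of 10 above 0, and -0.24 with Vehicle. With SAFit2, 1 (10%, against 11.7% of all genes) was called lower. This was *Sox10*, which also stands on the oligodendrocyte precursor list and was not called after GC correction (-0.02). Of 16 skeletal muscle markers, 7 were tested. Of these 7, *Tnnt3* and *Pvalb* were called higher with SAFit2 (28.6%, against 9.85% of all genes). Under quantile normalization *Pvalb* was not called (0.48). *Tnnt3*, a troponin, was 11.8-fold higher, yet only Late SAFit2 replicates 3 and 5 stood high, at 6.27 and 5.76. Its groups overlapped (exact permutation p = 0.103). Its call was lost without either of these libraries (2.52 and 2.65) and without Early SAFit2 replicates 1, 2 or 5 (3.13, 3.26 and 3.37).

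Voltage-gated ion channel genes had more members called lower than higher. Of 49 tested, 10 (20.4%, against 11.7% of all genes) fell and 2 (4.08%, against 9.85%) rose. Their median of -0.34 turned to 0.06 after GC correction, where 6 were called higher and 5 lower. With Vehicle the median was 0.05. *Cacna1g*, which encodes a T-type calcium channel subunit that opens near resting potential, had log2 CPM of 5.39, 5.80, 6.14, 5.86 and 6.07 in Early SAFit2 and of 4.95, 4.60, 4.89, 4.70 and 4.92 in Late SAFit2. Every late library lay below every early one (2.06-fold lower, adjusted p = 0.00133), while Late Vehicle spanned 4.70 to 6.01. Its Vehicle difference was -0.23 and the difference between the contrasts -0.82 (limma, adjusted p = 0.116).

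Other calcium channel genes were among those that fell. The L-type subunit gene *Cacna1d* fell by 1.21 and the T-type subunit gene *Cacna1h* by 1.16 on the log2 scale, without overlap between groups for either. *Cacna1h* was not called after GC correction. Of the channel genes that rose, *Kcnd2*, named after its values were seen, was higher by 0.55.

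Genes of the inhibitory synapse were called in the other direction. Of 28 GABA and glycine synapse genes, 6 (21.4%, against 9.85% of all genes) rose and none fell (median 0.17). This count of 6 was 3 without any one of Early SAFit2 replicates 2, 3 and 4 and Late SAFit2 replicates 4 and 5. *Gabrg1*, a GABA-A receptor subunit gene expressed in glia as well as neurons, had log2 CPM of 6.09, 5.43, 5.59, 5.53 and 5.86 in early and of 6.35, 6.80, 6.40, 6.69 and 7.01 in late libraries (1.93-fold, adjusted p = 0.00245). *Glrb*, the anchoring subunit of the glycine receptor, rose by 0.58, and was not called under quantile normalization (0.38). With Vehicle 4 were called higher (against 561 of all 15860 genes), or 7 without Late Vehicle replicate 6. Of 37 glutamate receptor and scaffold genes, 3 (8.11%, against 11.7% of all genes) fell and 1 (2.70%, against 9.85%) rose, with a median of -0.21 that turned to 0.16 after GC correction, and the count of reductions was 0 without Early SAFit2 replicate 3 and 1 without Early SAFit2 replicate 5. The count of increases was 0 without any one of Early SAFit2 replicates 2, 3 and 4 and Late SAFit2 replicates 4 and 5, and reached 4 without Late SAFit2 replicate 3 or Late Vehicle replicate 6.

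Genes of the NF-kappaB pathway, the inflammatory signalling cascade that frees NF-kappaB from its inhibitors, were in part lower. Of 26 members, 6 (23.1%, against 11.7% of all genes) were called lower and none higher with SAFit2. The median was -0.34, with 3 lower and a median of -0.09 after GC correction. With Vehicle 5 were called lower (against 943 of all 15860 genes) and none higher (median -0.11), or 2 to 6 lower leaving out 1 library. *Map3k14*, the kinase of the non-canonical branch, fell 4.60-fold and had 0 reads in Late SAFit2 replicate 4. *Traf3*, which restrains that kinase, fell by 0.72 and *Ikbkb*, a kinase of the canonical branch, by 0.61 on the log2 scale. *Traf3* was not called after GC correction (-0.32). With Vehicle *Ikbkb* was called lower at -0.41. Of 19 immediate early genes, which report recent neuronal activity, 4 (21.1%, against 11.7% of all genes) fell and none rose (median -0.49, 2 higher and none lower after GC correction). The count was 1 without Early SAFit2 replicate 2 or 3 and 2 without Early SAFit2 replicate 4 or Late SAFit2 replicate 3, 4 or 5. *Nr4a1*, an orphan nuclear receptor gene, fell by 0.84 and was not called after GC correction.

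The drug target and its partners showed modest differences. *Fkbp5* had log2 CPM of 4.53, 4.29, 4.98, 4.51 and 4.41 in Early SAFit2 and of 4.75, 4.97, 4.95, 4.46 and 4.55 in Late SAFit2, with overlapping groups and a difference of 0.20 ± 0.16 (limma, adjusted p = 0.376). SAFit2 binds the protein, so the level of the message does not check the labels. Of 24 genes for steroid receptors, Hsp90 and its co-chaperones, 5 (20.8%, against 9.85% of all genes) rose and 1 (4.17%, against 11.7%) fell. Increases numbered 1 under quantile normalization, 3 with library sizes that leave out *Bc1* and mitochondrial genes, and 9 after GC correction. *Hsp90aa1*, the stress-inducible Hsp90, ranged from 10.42 to 11.01 in early and from 11.46 to 11.75 in late libraries (1.84-fold, adjusted p = 0.00292, not called under quantile normalization). *Ptges3*, the co-chaperone p23, rose by 0.50.

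Among 22 genes known to be induced by glucocorticoids, 3 (13.6%, against 9.85% of all genes) rose and none fell. Their median was 0.04 against -0.06 over all genes, and it was -0.08 with library sizes that leave out *Bc1* and mitochondrial genes. *Klf9* ranged from 6.44 to 6.70 in early and from 6.93 to 7.21 in late libraries (1.45-fold, adjusted p = 0.0038), and the metallothionein gene *Mt2* rose by 0.66 with SAFit2 and 0.48 with Vehicle. Of 20 circadian clock genes, 2 (10%, against 9.85% of all genes) rose and 3 (15%, against 11.7%) fell, with 1 reduction left without any one of Early SAFit2 replicates 3, 4 and 5 and Late SAFit2 replicates 2 and 5. *Per3*, a period gene, fell 2.47-fold with SAFit2 (4.28 to 4.66 in early, 2.78 to 3.67 in late libraries, adjusted p = 0.000147) and by 1.01 on the log2 scale with Vehicle.

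Genes of motile cilia had 4 of 40 members called higher (10%, against 9.85% of all genes) and 2 lower (5%, against 11.7%), with 2 higher without any one of Early SAFit2 replicates 3 and 5 and Late SAFit2 replicates 4 and 5, and none lower without Early SAFit2 replicate 2, 4 or 5 or Late SAFit2 replicate 3. *Enkur*, which encodes a protein of sperm flagella and motile cilia, had log2 CPM of -0.50, -0.67, -1.46, -2.20 and 0.08 in Early SAFit2 and of 1.63, 1.02, 1.11, 2.30 and 2.30 in Late SAFit2 (6.17-fold, adjusted p = 0.0044). The Vehicle libraries spread more widely, from -0.33 to 3.01 early and from -0.11 to 3.45 late. The tektin gene *Tekt4* rose 3.13-fold with overlap between the groups. Summed CPM of ependymal markers outside cilia was 291 to 402 in Early SAFit2 and 299 to 653 in Late SAFit2. Of 11 such markers tested, 2 (18.2%, against 9.85% of all genes) were called higher and none lower. The count of increases was 0 to 2 leaving out 1 library.

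Of the 18 genes that the study names for this experiment, 5 (27.8%, against 9.85% of all genes) rose and 4 (22.2%, against 11.7%) fell. Since the study chose them on these libraries they are no independent evidence of a direction. The counts were 3 higher without Early SAFit2 replicate 2 or 3 or Late SAFit2 replicate 5, and 1 or 2 lower without Early SAFit2 replicate 2 or 3 or Late SAFit2 replicate 3, 4 or 5. *Maoa*, the monoamine oxidase, was at most 6.47 in early libraries and at least 6.62 in late ones (1.52-fold, adjusted p = 0.00123). *Rap1a*, a small GTPase gene, rose 1.79-fold (adjusted p = 0.00679), and both kept their call whichever single library was left out. *Shank3*, a scaffold of excitatory synapses, was called lower at -0.78, but at 0.04 after GC correction, and was not called without Early SAFit2 replicates 2, 3, 4 or 5 or Late SAFit2 replicates 3, 4 or 5 (-0.79 to -0.64). The NF-kappaB inhibitor gene *Nfkbib* (-0.75) was not called without Early SAFit2 replicates 2 or 3 or Late SAFit2 replicates 3, 4 or 5 (-0.72 to -0.63), and *Lrp1*, a scavenger receptor gene (-0.79), without Early SAFit2 replicate 3 or Late SAFit2 replicates 4 or 5 (-0.72 to -0.69). After GC correction neither was called, at -0.29 for *Nfkbib* and -0.01 for *Lrp1*, and under quantile normalization *Nfkbib* was not called (-0.61). *Gria4*, *Penk*, *Pdyn*, *Sstr1*, *Kcna1*, *Naaa*, *Eri1* and *Ptgs2* were not called, with differences between -0.26 and 0.36.

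The remaining lists held few called members. Of 25 interferon-stimulated and MHC class I genes, 4 (16%, against 9.85% of all genes) rose and 1 (4%, against 11.7%) fell, with 2 higher without any one of Early SAFit2 replicates 3 and 5, Late SAFit2 replicates 3 and 5, Early Vehicle replicates 2 and 6 and Late Vehicle replicates 1, 4 and 5. *B2m*, the light chain of MHC class I, was 1.87-fold higher (adjusted p = 0.00346). Of 32 genes for dorsal horn peptides, opioids and other pain-related signals, 2 (6.25%, against 9.85% of all genes) rose and none fell. They were *Maoa*, whose enzyme degrades amines and is neither a peptide nor an opioid, and the neurokinin B receptor gene *Tacr3* at 0.70. *Tacr3* was at 0.49 and not called without Late SAFit2 replicate 5 and Early SAFit2 replicate 1 together. Of 51 zinc finger genes numbered Zfp900 to Zfp999, 3 (5.88%, against 9.85% of all genes) rose and 4 (7.84%, against 11.7%) fell with SAFit2. With Vehicle 10 fell, against 943 of all 15860 genes. The medians were 0.13 with SAFit2 (-0.07 after GC correction) and -0.42 with Vehicle. The count of increases with SAFit2 was 7 without Late SAFit2 replicate 1 and 6 without Late Vehicle replicate 6, and the count of reductions with Vehicle was 5 without Early Vehicle replicate 5, 6 without Late Vehicle replicate 1 or 3 and 18 without Late Vehicle replicate 6. Of these zinc finger genes, 2 fell with SAFit2 without Early SAFit2 replicate 1, 2 or 5 or Late SAFit2 replicate 2. Of 26 neurofilament and axon cytoskeleton genes, 2 (7.69%, against 9.85% of all genes) rose and 2 (7.69%, against 11.7%) fell, with no increase without Early SAFit2 replicate 3. Of 41 primary cilium and Hedgehog genes, 1 (2.44%, against 9.85% of all genes) rose and 4 (9.76%, against 11.7%) fell, and the count of reductions was 1 without Early SAFit2 replicate 4 or 5 and 2 without Early SAFit2 replicate 3 or Late SAFit2 replicate 2.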

How the data were processed

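RNA of lumbar cord quadrants of 22 mice in 4 groups was sequenced from strand-marked libraries (5 Early SAFit2, 5 Late SAFit2, 6 Early Vehicle, 6 Late Vehicle). The submitters' processing notes name Trimmomatic, HISAT2 and edgeR, and the study gives mm10 as genome, featureCounts for counting and TMM scaling. The strand setting of the counting is not given in the sources used here. The authors deposited log2 CPM for 17306 genes. Their values fell on whole reads (100.0% within 0.02 reads), from which reads on genes were recovered for each library (11352989 to 24433349).

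Group means were fitted to the deposited log2 CPM of all 22 libraries with limma 3.58.1 in R 4.3.3, with a variance trend, after keeping genes with log2 CPM of at least -1 in 5 of the 10 SAFit2 libraries. Late minus early was taken with SAFit2, with Vehicle and as the difference of both. Genes passing both a Benjamini-Hochberg limit of 0.05 and a 1.2-fold change were called. Single values were tested by exact permutation (smallest p 0.0079). Python 3.11.15 was used for the other steps, and the fit was tested on simulated data. Fold changes of low genes are understated on this scale, and p-values measure the spread between these mice.

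Genes with a symbol, other than predicted ones, were named by rule: the 10 of lowest p in each direction without overlap, the 5 of largest fold in each direction with a mean log2 CPM of at least 1, the 5 of lowest p in each direction of the difference, up to 4 members of lowest p per list, and the genes the study names. A few genes that meet this rule are not reported here. Members and lists were chosen with earlier results of these data known. Alternatives were other filters, pseudocounts, variance models, scalings, GC and length correction, a replicate block, voom on the recovered reads and leaving out each library. Gene positions are of mm10, and promoters are from RefSeq.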

Additional observations from a re-analysis of the deposited data

Results flagged for a closer look

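Among 124 groups of 5 values (8 library measures and 54 genes in both SAFit2 groups), 4 had 1 library set apart from the other 4 by more than Dixon's critical ratio of 0.71, and chance gives about 1 in 20, or 6.2. Early SAFit2 replicate 1 had 16835 genes with a read, the fewest of its group, whose median was 17158. *Cyp2j9* was at 6.24 log2 CPM (6.238) in Late SAFit2 replicate 5, below the other 4 late libraries and above all early ones. *Vcam1* was at 4.50 (4.501) in Early SAFit2 replicate 2, below the other early libraries. *Erdr1* was at -2.42 (-2.424) in Late SAFit2 replicate 2, where the late median was 0.93. The calls of these 3 genes held without each of these libraries.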

How the results depend on the processing

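Among the values of the 138 called named genes under the alternatives, 5196 stayed past the threshold with the same sign, 445 fell below it and 10 reversed. The reversals were *Hspa8* at -0.0294 under quantile normalization and, with GC and length correction in each of 3 fits, *Tef* (0.0002), *Shank3* (0.0428) and *Sptbn4* (0.0447). The 3415 SAFit2 calls became 5765 at a nominal p under 0.05, 1995 at 1.5-fold and 5163 with library weights, 2168 to 3917 leaving out 1 library, 3630 with only the SAFit2 libraries and 2957 with voom. The 1504 Vehicle calls became 3938, 818 and 5066 under the first 3 of these, 2868 with GC correction, 2773 with a replicate block and GC correction, and 903 (without Late Vehicle replicate 1) to 2455 (without Late Vehicle replicate 6). The difference of both gave 4103 at a nominal p (1989 with GC correction), 2 without a variance trend, 5299 with library weights and 0 to 2613 leaving out 1 library. The higher and lower split was 2442 and 1331 with median centring, 791 and 3030 with library sizes without *Bc1* and mitochondrial genes and 2385 and 940 with GC correction. Replicate numbers did not pair the samples (correlations of -0.17 to 0.13 between same-numbered samples, 2 of 10 closest to their own number), and a replicate block gave 3304 calls. Timing, batch and time since the last gel cannot be told apart. The 3 alternatives on the 10 SAFit2 libraries with a block or GC correction and without Late SAFit2 replicate 5 and Early SAFit2 replicate 1 were added after seeing the data. The causes of these shifts were not tested.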
